A study of Mus musculus with 14 samples.

Results

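The 10 genes described here, Col4a1, Col4a2, Col6a1, Col6a2, Col6a3, Col8a1, Col12a1, Col14a1, Col15a1 and Col16a1, encode chains of collagens that do not build the thick interstitial fibrils. They were picked by symbol from the 54532 genes of the count table, as a list of collagen types drawn up with earlier results of these data known, and each symbol matched 1 row. They are called basement membrane and beaded collagens, a name that fits the type IV chains, which form basement membranes, and the type VI chains, which form beaded filaments. Types VIII, XII, XIV, XV and XVI belong to other classes, so the name does not describe all 10, although type XV lies in the basement membrane zone. All 10 passed the filter on low counts and were among the 15876 genes tested.

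The libraries were made from polyadenylated RNA of mouse heart ventricles taken 1 week after surgery. The surgery was transverse aortic constriction (TAC), in which a tightened band on the aorta makes the heart pump against raised pressure, or a sham operation. The mice lacked Ccl24, a chemokine gene, or were wild type, in a study that by its title concerns macrophage-derived CCL24 and cardiac fibrosis. There were 4 libraries of Ccl24 knockout (KO) mice after TAC (replicates 1, 2, 4 and 5), 2 of KO mice after sham, 6 of wild type (WT) mice after TAC (replicates 1, 2, 3, 4, 6 and 7) and 2 of WT mice after sham. The sources used here do not give the strain, age or sex of the mice or the design of the knockout allele. The numbers of libraries equal the numbers of mice in the design text, but no label names a mouse, so p-values measure the spread between these libraries.

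Total counts were 17072262 to 33123052 per library. Cardiomyocyte marker genes (7 genes, none at 0) summed to 44118 to 51479.5 CPM (counts scaled to library size) in KO TAC, 54445 and 54896 CPM in KO sham, 37123 to 48214 CPM in WT TAC and 49163 and 50518 CPM in WT sham, lower after TAC without overlap in both genotypes. Ccl24 had 3 to 8 counts in all 6 KO libraries and 56 to 105 counts in 7 of the 8 WT libraries. The library labelled wild type TAC replicate 1 had 3 Ccl24 counts, the level of the KO libraries, which goes against its label. It was kept where its label puts it, and counts of members and of related genes that moved without it are given beside those with it.

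Type IV collagen is the sheet-forming scaffold of basement membranes, the thin layers that lie under endothelium and around each cardiomyocyte, and the chains of Col4a1 and Col4a2 assemble into the same molecule. Type VI collagen is built from the chains of Col6a1, Col6a2 and Col6a3 and forms beaded microfilaments that link basement membranes to the interstitial matrix. Type VIII is a short-chain, network-forming collagen of vessel walls. Types XII, XIV and XVI are fibril-associated collagens with interrupted triple helices (FACITs), which sit on the surface of other fibrils, and type XV is a multiplexin, a proteoglycan-like collagen of the basement membrane zone. In the pressure-loaded heart, fibroblasts and vascular cells are known sources of these matrix genes. In bulk tissue, fewer cells of a type and less RNA per cell cannot be told apart.

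Together the 10 genes took 0.173% to 0.645% of all counts. Their CPM summed to 3839, 3810.0, 2759 and 3062 in KO TAC libraries, 1826 and 1969.8 in KO sham libraries, 2770.4 to 6405 in WT TAC libraries (median 4388) and 1911 and 1749 in WT sham libraries. Every TAC library lay above every sham library. The WT TAC libraries spread wider than the KO TAC libraries, and replicates 1 and 2 of WT TAC, at 3446 and 2770.4 CPM, lay within the range of the KO TAC libraries.

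Scaled to length, the type IV chains were the most abundant of the set in each of the 4 groups. Per kilobase of exon (GENCODE M21, merged exons), Col4a1 averaged 161 CPM in KO TAC, 98.2 CPM in KO sham, 179 CPM in WT TAC and 80.6 CPM in WT sham. Col4a2 followed, at 127, 78.5, 138 and 68.2 CPM per kilobase in the same order of groups. Below them, Col6a1 and Col15a1 came next in all 4 groups, with Col15a1 ahead of Col6a1 only in WT TAC, where the ranges of these 2 genes overlapped (95.2 CPM per kilobase for Col15a1 and 86.9 for Col6a1). Col12a1 was last in all 4 groups, at 0.492 CPM per kilobase in KO TAC, 0.122 in KO sham, 1.33 in WT TAC and 0.233 in WT sham. In WT TAC each gene overlapped the next in the order except the lowest pair, Col6a3 and Col12a1. In the WT sham pair of libraries no neighbours overlapped.

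**Figure D1:**
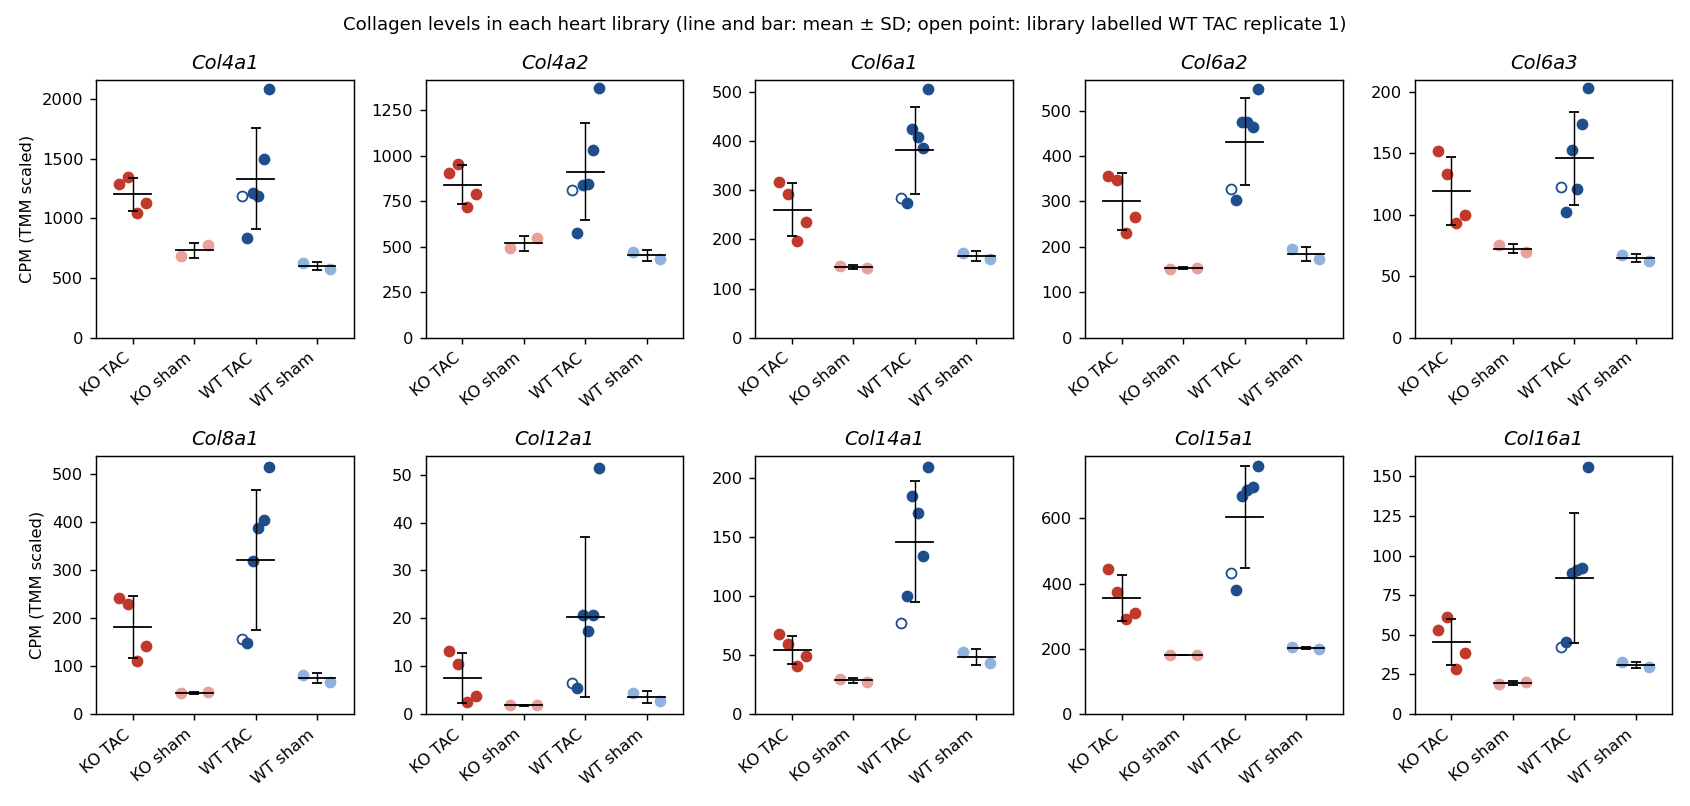
CPM (TMM scaled) of each gene in each library, with KO TAC, KO sham, WT TAC and WT sham from left to right. Points are libraries (n = 4, 2, 6 and 2), lines and bars are the mean ± SD, the open point is the library labelled WT TAC replicate 1, and each panel has its own axis from 0. In every panel all TAC points lie above the sham points of their genotype, and WT TAC replicate 7 is the highest WT TAC point.

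The first comparison asked what 1 week of pressure overload did to these genes in each genotype. All 10 were higher after TAC in both genotypes, with no overlap between the TAC and sham libraries of a genotype. Among all genes tested, 17% were higher without overlap in KO and 16.3% in WT (20.2% in WT without the library labelled WT TAC replicate 1). In WT hearts 8 of the 10 passed the test and rose, by 2.02-fold (Col4a2) to 4.29-fold (Col8a1), against 6.36% of all genes that rose. In KO hearts 2 of the 10 passed and rose, Col6a2 (1.97-fold) and Col15a1 (1.96-fold), against 2.36% of all genes. The median log2 fold change of the set was 0.95 in KO and 1.34 in WT, where the medians of all genes were -0.01 and 0.01. These are fits over all 14 libraries with edgeR's quasi-likelihood test, adjusted over all genes, with an adjusted p of 0.05 as the threshold.

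Promoter sequences are shown for the member with the largest difference that passed (Col8a1) and for the pair that passed in both genotypes (Col6a2 and Col15a1). Each is the 250 bases before a RefSeq gene start on GRCm38.p6, 5′ to 3′ on the strand of the gene: chr16:57754738-57754987 (minus), chr10:76623631-76623880 (minus) and chr4:47207762-47208011 (plus). Capitals mark the GC box, GGGCGG or its reverse complement CCGCCC.
Col8a1: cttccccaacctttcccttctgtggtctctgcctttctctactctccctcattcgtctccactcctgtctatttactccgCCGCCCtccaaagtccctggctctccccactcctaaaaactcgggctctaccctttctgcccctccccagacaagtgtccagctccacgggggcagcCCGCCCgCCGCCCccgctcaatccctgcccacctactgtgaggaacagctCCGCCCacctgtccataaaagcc
Col6a2: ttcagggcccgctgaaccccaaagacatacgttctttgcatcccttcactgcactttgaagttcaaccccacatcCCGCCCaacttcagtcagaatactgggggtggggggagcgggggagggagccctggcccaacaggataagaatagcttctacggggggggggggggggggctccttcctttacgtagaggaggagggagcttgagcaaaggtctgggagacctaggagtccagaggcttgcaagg
Col15a1: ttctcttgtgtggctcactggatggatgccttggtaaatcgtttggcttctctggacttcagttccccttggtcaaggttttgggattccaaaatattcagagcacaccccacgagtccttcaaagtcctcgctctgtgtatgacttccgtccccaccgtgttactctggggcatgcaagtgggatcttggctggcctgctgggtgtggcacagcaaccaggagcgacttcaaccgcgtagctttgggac
The Col8a1 window held 4 GC boxes, the Col6a2 window held 1, and the Col15a1 window held none.

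RefSeq windows were found for 8 of the 10 genes, and Col12a1 and Col14a1 were not matched. Windows of 4 of the 8 genes (Col4a2, Col6a2, Col8a1 and Col16a1) held the GC box on either strand, against 32.7% of 32851 promoter windows of the same length. CCAAT was found in 3 (Col4a1, Col4a2 and Col16a1), against 33.8%, CATTCC, the core of the TEAD site, in 1 (Col6a2, in the window of its other start), against 12.6%, and TGANTCA, the AP-1 site, in 1 (Col6a1), against 6.75%. TATAAA (12.4% of windows) and the SMAD palindrome GTCTAGAC (0.167%) were in none of the 8. Both strands were searched, and none of these motifs contains another. The windows of Col4a1 and Col4a2 are not printed, because each lies wholly within annotated exons of the other gene. Annotated exons also took up 226 of 250 bases in the window of the other Col6a2 start, 124 in the Col6a1 window and 113 in the Col16a1 window. The AP-1 match of Col6a1 lay within those exon bases.

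Type IV. Col4a1 (chromosome 8, 11198423 to 11312826, minus strand, GRCm38) and Col4a2 (11312805 to 11449287, plus strand) lie head to head, and their first exons overlap by 22 bases. Col4a1 had 1286, 1348, 1045 and 1132 CPM in KO TAC libraries against 688 and 778 CPM in KO sham libraries. In WT TAC libraries it ran from 834 to 2086 CPM (median 1200.0), against 624 and 579 CPM in WT sham libraries. TAC libraries were above sham in both genotypes, and the KO TAC values lay inside the range of the WT TAC values.

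The fitted log2 fold change of Col4a1 was 0.71 (SE 0.26, adjusted p = 0.126) in KO and 1.15 (SE 0.25, adjusted p = 0.0147) in WT. Col4a2 had 906, 953, 718 and 787 CPM in KO TAC and 490.1 and 549 CPM in KO sham, and 577 to 1369 CPM (median 843) in WT TAC and 473 and 430.4 CPM in WT sham. Its log2 fold change was 0.69 (SE 0.24, adjusted p = 0.119) in KO and 1.01 (SE 0.24, adjusted p = 0.0178) in WT. Both chains therefore rose in WT and did not pass in KO with edgeR. In KO both passed with DESeq2 (adjusted p = 0.043 for Col4a1 and 0.04 for Col4a2). Whether the genotypes differ in their response to TAC is tested as an interaction after the other comparisons.

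Type VI. Col6a1 (chromosome 10, 76708792 to 76726168) and Col6a2 (chromosome 10, 76595762 to 76623630) lie on the minus strand with 85161 bases and no protein-coding gene between them, and Col6a3 lies on chromosome 1 (90765923 to 90843971). Col6a1 had 316, 293, 197 and 236 CPM in KO TAC and 146 and 141 CPM in KO sham, and 274 to 506 CPM (median 397) in WT TAC and 173 and 159 CPM in WT sham. Col6a2 had 357, 348, 230.1 and 265 CPM in KO TAC and 151 and 154 CPM in KO sham, and 303 to 548 CPM (median 468) in WT TAC and 196 and 173 CPM in WT sham. For both chains the KO TAC replicates 1 and 2 reached into the WT TAC range, and KO TAC replicates 4 and 5 lay below it.

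The increase of Col6a2 passed in both genotypes, its log2 fold change being 0.97 (SE 0.23, adjusted p = 0.0291) in KO and 1.23 (SE 0.22, adjusted p = 0.00864) in WT. Col6a1 rose in WT (1.20, SE 0.23, adjusted p = 0.0105) and narrowly did not pass in KO with edgeR (0.86, SE 0.23, adjusted p = 0.0533). In KO it passed with DESeq2 (adjusted p = 0.0045) and with limma voom (adjusted p = 0.046). Col6a3, the longest of the type VI chains, had 152, 133, 93.3 and 99.6 CPM in KO TAC and 75.5 and 69.8 CPM in KO sham, and 102 to 203 CPM (median 138) in WT TAC and 67.1 and 62.8 CPM in WT sham. It rose in WT (1.17, SE 0.25, adjusted p = 0.0152), and its log2 fold change in KO was 0.72 (SE 0.26, adjusted p = 0.131 with edgeR). The KO difference of Col6a3 passed with DESeq2 (adjusted p = 0.038).

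Type VIII. Col8a1 (chromosome 16, 57624258 to 57754737, minus strand) had the largest fold change among the members that passed. It measured 242, 230.2, 111 and 141 CPM in KO TAC and 43.3 and 46.4 CPM in KO sham, and 148 to 514 CPM (median 353) in WT TAC and 82.2 and 67.7 CPM in WT sham. All TAC libraries exceeded all sham libraries of either genotype. Its log2 fold change was similar in size in both genotypes, 2.01 (SE 0.54, adjusted p = 0.0618) in KO and 2.1 (SE 0.52, adjusted p = 0.0277) in WT, although only the WT difference passed with edgeR. The KO difference passed with DESeq2 (adjusted p = 0.0011) and with limma voom (adjusted p = 0.029).

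FACITs. Col14a1 (chromosome 15, 55307750 to 55520803, plus strand) encodes a collagen that binds fibril surfaces. It had 67.7, 58.9, 40.5 and 49.5 CPM in KO TAC and 30.0 and 27.0 CPM in KO sham, and 77.2 to 209 CPM (median 152) in WT TAC and 52.7 and 43.1 CPM in WT sham. The KO TAC values were close to the WT sham values, and all were below every WT TAC value. It rose in WT (1.61, SE 0.35, adjusted p = 0.0177), with a log2 fold change of 0.93 in KO (SE 0.36, adjusted p = 0.164 with edgeR). The KO difference of Col14a1 passed with DESeq2 (adjusted p = 0.034).

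Col12a1 (chromosome 9, 79598991 to 79718831, minus strand), a FACIT known for dense connective tissue, was the least abundant and the most variable member. It had 13.2, 10.5, 2.52 and 3.85 CPM in KO TAC and 1.8 and 1.91 CPM in KO sham, and 5.36 to 51.4 CPM (median 18.9) in WT TAC and 4.39 and 2.69 CPM in WT sham. Its raw counts were 57 to 299 in KO TAC, 35 and 39 in KO sham, 138 to 1714 in WT TAC and 103 and 53 in WT sham. Its fitted differences were the largest of the set and passed in neither genotype with edgeR, at 2.03 (SE 1.08, adjusted p = 0.321) in KO and 2.52 (SE 0.97, adjusted p = 0.112) in WT. In WT it passed with DESeq2 (adjusted p = 0.02).

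Col16a1 (chromosome 4, 130047840 to 130099283, plus strand), a minor FACIT, had 53.2, 61.4, 28.3 and 38.8 CPM in KO TAC and 18.9 and 20.4 CPM in KO sham, and 42.6 to 156 CPM (median 89.9) in WT TAC and 32.6 and 29.9 CPM in WT sham. KO TAC replicate 4 lay below both WT sham libraries. The log2 fold change was 1.21 (SE 0.50, adjusted p = 0.196) in KO and 1.46 (SE 0.48, adjusted p = 0.0697) in WT, and neither passed with edgeR. In WT it passed with DESeq2 (adjusted p = 0.013) and with limma voom (adjusted p = 0.048). Without the library labelled WT TAC replicate 1, the WT difference passed, at 1.60 (adjusted p = 0.0315).

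Type XV. Col15a1 (chromosome 4, 47208161 to 47313167, plus strand) encodes the multiplexin that bridges basement membranes and nearby fibrils, and loss of this gene is known to affect heart and skeletal muscle in mice. It had 446, 374, 293 and 309 CPM in KO TAC and 181 and 182 CPM in KO sham, and 381 to 762 CPM (median 677) in WT TAC and 206 and 201 CPM in WT sham. The sham libraries of each genotype were nearly equal, and 4 WT TAC libraries, at 668 to 762 CPM, lay above all KO TAC libraries. It had the smallest adjusted p of the set in WT (log2 fold change 1.57, SE 0.26, adjusted p = 0.0066) and passed just under the threshold in KO (0.97, SE 0.26, adjusted p = 0.0496).

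Counting used an unstated strand setting, and short exonic overlaps with genes on the other strand (22 bases for Col4a1, 65 for Col4a2 and 14 for Col15a1) made up at most 0.982% of a member's exon length. Without the library labelled WT TAC replicate 1, 9 of 10 members passed in WT (9.25% of all genes rose) and 4 of 10 in KO (2.87%), where Col6a1 (adjusted p = 0.0363) and Col8a1 (adjusted p = 0.0413) joined. Leaving out a sham library left 1 in its group, so only fold changes are given for those fits. Over the 14 fits that left out 1 library, members' log2 fold changes ran from 0.84 to 2.93 in WT and from 0.58 to 2.32 in KO. The KO count fell to 0 without KO TAC replicate 1 or 2 (324 of 15870 and 152 of 15834 genes rose). It was 1 without KO TAC replicate 5 (253 of 15855) or WT TAC replicate 3, 4 or 6 (329 of 15840, 337 of 15842 and 359 of 15849). It was 4 without KO TAC replicate 4 (406 of 15841) or WT TAC replicate 2 (453 of 15843), and 6 without WT TAC replicate 7 (763 of 15811).

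**Figure D2:**
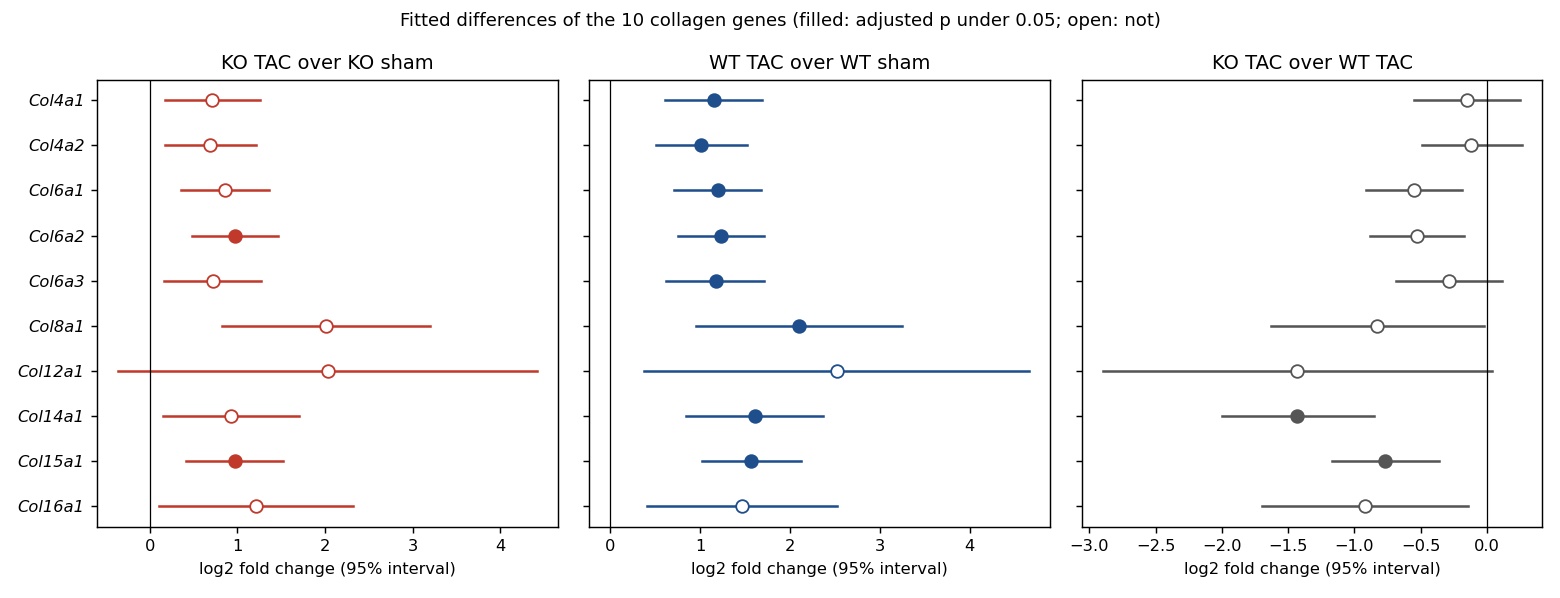
Fitted log2 fold changes (points) with 95% intervals (lines) for KO TAC over KO sham, WT TAC over WT sham and KO TAC over WT TAC, with the genes listed down the page. Filled points passed an adjusted p of 0.05 and open points did not: 2, 8 and 2 of 10. The intervals of Col12a1 are the widest in all 3 panels.

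The libraries within a TAC group differed in how far they stood from sham, and the order was shared across the genes. Among the 6 WT TAC libraries, replicate 7 was the highest for 10 of 10 genes, and replicate 2 was the lowest for 8, with replicate 1 lowest for Col14a1 and Col16a1. Among the 4 KO TAC libraries, replicate 4 was the lowest for 10 of 10, and replicate 1 was the highest for 7 and replicate 2 for 3. Relative to the sham mean of the genotype, the median fold of the 10 genes was 2.36, 2.06, 1.42 and 1.72 in KO TAC replicates 1, 2, 4 and 5. In WT TAC replicates 1, 2, 3, 4, 6 and 7 it was 1.83, 1.61, 2.71, 2.74, 2.73 and 3.6. The weakest WT TAC responses, replicates 1 and 2, lay between the KO TAC libraries, and the other 4 lay above all of them.

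The genes differed in how much they varied between libraries. Within WT TAC, the coefficient of variation ran from 22% for Col6a2 to 81.9% for Col12a1. In WT TAC replicate 7, Col12a1 was 14.5-fold above the WT sham mean and Col8a1 6.86-fold, while Col6a2 was 2.97-fold above it. In KO TAC replicate 1 the folds over the KO sham mean were 7.1 for Col12a1, 5.4 for Col8a1 and 1.74 for Col4a2. In the weakest KO TAC library, replicate 4, Col8a1 was still 2.47-fold above sham, and the other 9 genes were 1.28-fold (Col6a3) to 1.61-fold (Col15a1) above it.

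**Figure D3:**
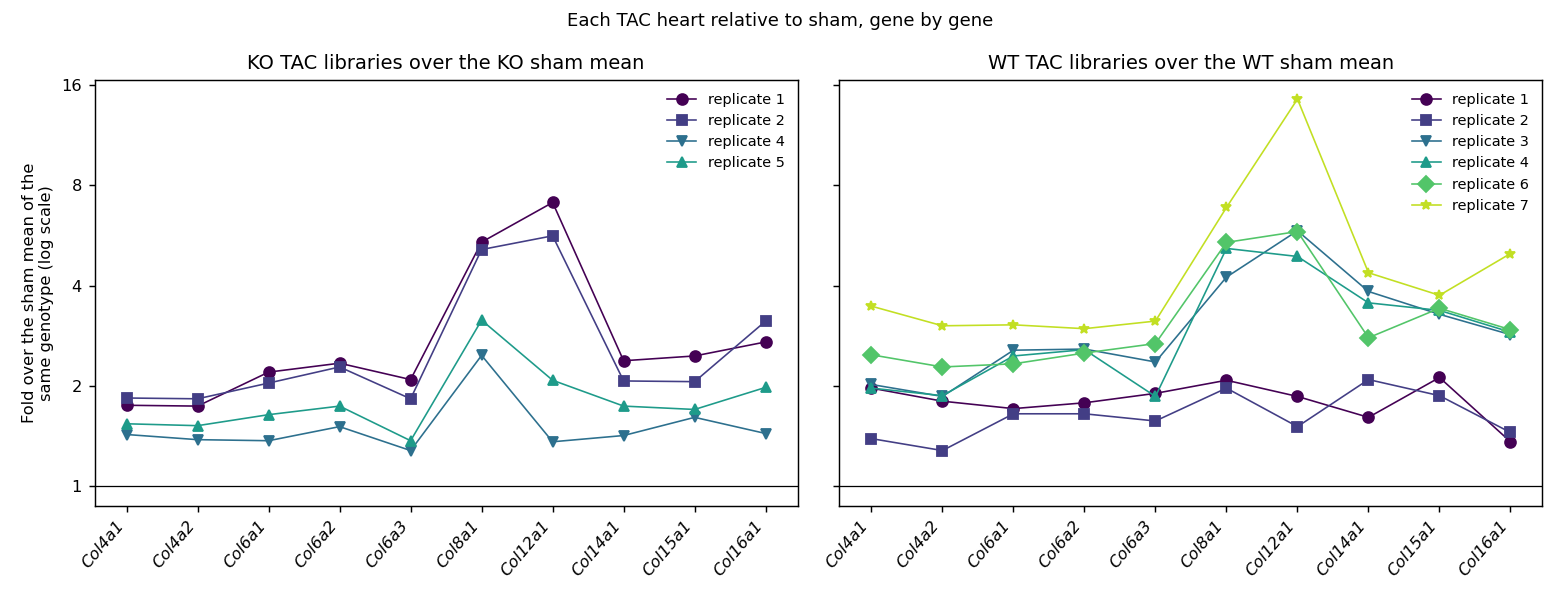
Fold of each TAC library over the mean of the sham libraries of its genotype, on a log scale, for each gene, with KO on the left and WT on the right. Lines join the values of 1 library. All values lie above 1, Col8a1 and Col12a1 stand out in most libraries, and WT TAC replicate 7 reaches 14.5 for Col12a1.

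The second comparison asked whether the level after TAC differed between the genotypes. All 10 genes had a negative log2 fold change in KO TAC relative to WT TAC, with a median of -0.66 where the median of all genes was -0.01. Col14a1 and Col15a1 passed and were lower in KO, that is 2 of 10 against 5.63% of all genes. Col14a1 had a log2 fold change of -1.43 (SE 0.26, 95% interval -2.0 to -0.85, adjusted p = 0.01), or 0.372 of the WT level, with means of 54.2 ± 11.8 CPM in KO TAC (SD, n = 4) and 146 ± 51.1 CPM in WT TAC (n = 6). Col15a1 had a log2 fold change of -0.77 (SE 0.19, interval -1.17 to -0.36, adjusted p = 0.0254), with means of 356 ± 69.7 CPM in KO TAC and 604 ± 157 CPM in WT TAC.

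The type IV chains showed the smallest differences. Their intervals bound the change to between -0.55 and 0.25 for Col4a1 (-0.15, SE 0.19, adjusted p = 0.634) and between -0.49 and 0.26 for Col4a2 (-0.12, SE 0.18, adjusted p = 0.697). Without WT TAC replicate 7 they were 0.03 and 0.04, the only members whose sign changed when a library was left out. Col6a1 (-0.55, SE 0.17, adjusted p = 0.0547) and Col6a2 (-0.53, SE 0.17, adjusted p = 0.0578) lay just beyond the threshold with edgeR. With DESeq2 both passed and were lower in KO (adjusted p = 0.016 for Col6a1 and 0.02 for Col6a2). Col6a3 was at -0.29 (SE 0.19, adjusted p = 0.327 with edgeR). The remaining members had larger but more variable differences, -0.83 for Col8a1 (SE 0.37, adjusted p = 0.166), -1.43 for Col12a1 (SE 0.67, adjusted p = 0.185) and -0.92 for Col16a1 (SE 0.35, adjusted p = 0.118).

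Col14a1 was the only member whose KO TAC and WT TAC libraries did not overlap, with 4.08% of all genes lower without overlap (7.56% when the library labelled WT TAC replicate 1 is left out). The nearest values were 67.7 CPM in KO TAC replicate 1 and 77.2 CPM in the library labelled WT TAC replicate 1. The other 9 genes overlapped.

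Without the library labelled WT TAC replicate 1, 5 of 10 members were lower in KO, where 10% of all genes were. They were Col14a1 (-1.56, adjusted p = 7.62e-04), Col15a1 (-0.84, adjusted p = 0.00647), Col6a1 (-0.62, adjusted p = 0.0184), Col6a2 (-0.59, adjusted p = 0.0216) and Col16a1 (-1.06, adjusted p = 0.0461). The Col14a1 call held in each fit that left out 1 TAC library. The Col15a1 call was lost without KO TAC replicates 2, 4 or 5 or WT TAC replicates 3 or 4 (edgeR adjusted p up to 0.093). That left 1 member called, where 381 of 15834, 296 of 15841, 223 of 15855, 423 of 15840 and 437 of 15842 genes were lower. Without KO TAC replicate 1 or WT TAC replicate 2, 4 were called, where 1296 of 15870 and 933 of 15843 genes were lower.

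Setting the other 8 members against type IV in the same library shows how their differences compare with those of Col4a1 and Col4a2. Type IV was taken for this after its 2 chains had been seen to differ least between KO TAC and WT TAC, so that the other 8 came out lower relative to it follows from that choice, and the values are a description with no test. The log2 level relative to the mean of Col4a1 and Col4a2 averaged -4.22 ± 0.17 in KO TAC and -2.95 ± 0.45 in WT TAC for Col14a1 (SD, n = 4 and 6). For Col15a1 it averaged -1.51 ± 0.16 in KO TAC and -0.86 ± 0.27 in WT TAC. The differences ran from -0.19 for Col6a3 to -1.27 for Col14a1, with Col6a1 and Col6a2 at -0.45 and -0.43.

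**Figure D4:**
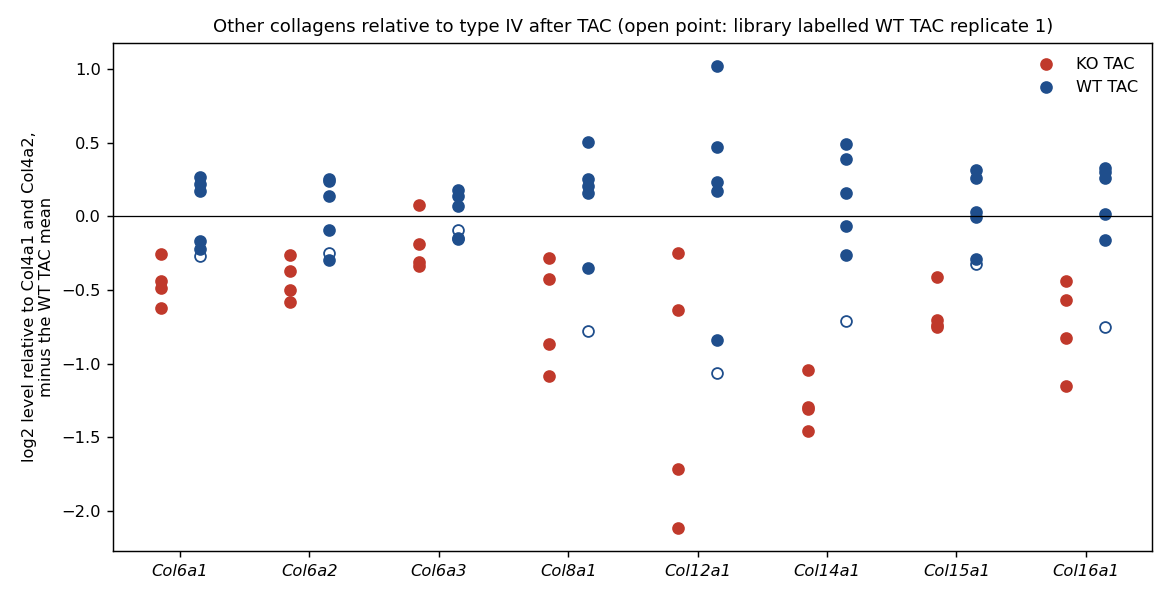
Log2 level of each of 8 genes relative to the mean of Col4a1 and Col4a2 in the same library, shown as the difference from the WT TAC mean (line at 0), with KO TAC left of WT TAC. Points are libraries (n = 4 and 6), and the open point is the library labelled WT TAC replicate 1. The KO TAC points average 1 or more log2 units below the line for Col12a1 and Col14a1 (-1.18 and -1.27) and lie nearest to it for Col6a3 (-0.19).

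The third comparison set KO against WT after sham surgery, with 2 libraries in each group. None of the 10 genes passed (adjusted p 0.513 to 0.886 with edgeR), where 0.126% of all genes did. An unadjusted edgeR p under 0.05 was found for 0 of the 10 and for 1799 of all 15876 genes. Limma voom and DESeq2 also called 0 of the 10. The fitted differences were positive for Col4a1 (0.28), Col4a2 (0.20) and Col6a3 (0.16) and negative for the other 7, down to -0.94 for Col12a1, -0.75 for Col14a1 and -0.74 for Col8a1. With 2 against 2 libraries the groups did not overlap for any member, 3 higher and 7 lower, where 26.6% of all genes were higher and 26.3% lower without overlap. The intervals were wide, from -1.62 to 0.12 for Col14a1 and from -0.33 to 0.90 for Col4a1. When the 2 sham groups were fitted alone, 3 members were lower in KO, where 657 of 14751 genes were. Without the library labelled WT TAC replicate 1 the count was again 0 (0.397% of all genes). In that fit 1 of the 10, Col14a1, had an unadjusted edgeR p under 0.05, where 2047 of 15880 genes did.

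Whether the response to TAC differed between the genotypes was tested as the genotype by surgery interaction, the log2 response in KO minus that in WT. None of the 10 genes passed (adjusted p = 0.997 for each with edgeR), and 0% of all genes did. An unadjusted edgeR p under 0.05 was found for 0 of the 10 and for 647 of all 15876 genes. Limma voom and DESeq2 also called 0 of the 10. The fitted differences were negative for all 10, from -0.68 (SE 0.47) for Col14a1 to -0.09 (SE 0.67) for Col8a1, with a median of -0.39. Signs changed without WT TAC replicate 7, for Col8a1 (0.12), Col12a1 (0.07) and Col16a1 (0.03), and for Col8a1 also without KO TAC replicate 4 (0.09) or 5 (0.02), WT sham replicate 2 (0.05) or WT TAC replicate 6 (0.01). Intervals included 0 for every member, for example -1.33 to 0.13 for Col15a1 and -1.16 to 0.30 for Col4a1. Members that passed in WT and not in KO are therefore not shown to respond differently. Without the library labelled WT TAC replicate 1, 0 of 10 passed (0.0189% of all genes). In that fit 1 of 10, Col15a1, had an unadjusted edgeR p under 0.05, where 950 of 15880 genes did. Its log2 difference was -0.68 (adjusted p = 0.831 with edgeR).

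The ratios of Col4a2 to Col4a1 and of Col6a2 to Col6a1 varied little between libraries. The counts of Col4a2 were 0.687 to 0.706 of those of Col4a1 in KO TAC, 0.705 to 0.713 in KO sham, 0.656 to 0.711 in WT TAC and 0.743 to 0.757 in WT sham. Both WT sham libraries lay above all others, but 6 against 2 libraries cannot give a p below 0.071, which is what the exact two-sided permutation test gave (log2 difference -0.13, adjusted p = 0.4). The ratio of Col6a2 to Col6a1 ran from 1.04 to 1.2 over all 14 libraries, so these chains moved together in every group.

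The ratio of Col6a3 to Col6a1 varied more, at 0.422 to 0.48 in KO TAC, 0.494 to 0.517 in KO sham, 0.296 to 0.45 in WT TAC and 0.388 and 0.394 in WT sham. After TAC it was higher in KO by 0.26 on the log2 scale (exact permutation p = 0.038), which did not pass when adjusted over the 12 ratio tests (adjusted p = 0.4). After sham the log2 difference was 0.37, where 2 against 2 libraries allow no p below 0.33 in an exact test. None of the 12 tests passed.

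**Figure D5:**
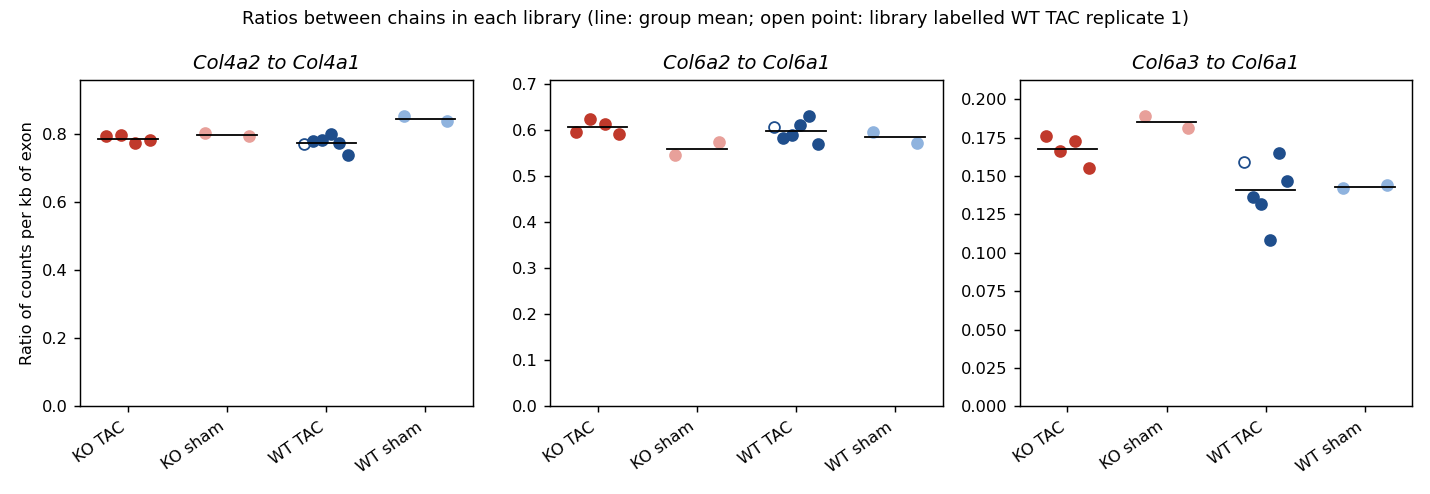
Ratio of counts per kilobase of exon between chains of type IV (left) and type VI (middle and right) in each library, on axes that start at 0, with KO TAC, KO sham, WT TAC and WT sham from left to right. Lines are group means, and the open point is the library labelled WT TAC replicate 1. Col4a2 to Col4a1 spans 0.74 to 0.854 and Col6a3 to Col6a1 spans 0.108 to 0.189.

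The same closeness appeared in the profiles over the 14 libraries. The root mean square difference in centred log2 CPM was 0.05 between Col4a1 and Col4a2 and 0.06 between Col6a1 and Col6a2, the closest pairs of the set. Col15a1 was next nearest to Col6a2 (0.15), and Col6a3 was nearer to Col4a2 (0.16) than to Col6a1 (0.21). Among all other genes averaging 1 CPM or more, Carhsp1 was nearest to Col4a1 (0.12), Col4a2 (0.11) and Col6a3 (0.16). Emilin1 was nearest to Col6a1 (0.09) and Col6a2 (0.08), Bgn to Col16a1 (0.14), Emp1 to Col15a1 (0.16), Ctsk to Col14a1 (0.17), Loxl2 to Col8a1 (0.22) and Cilp to Col12a1 (0.33). These are descriptions over libraries that share groups and scaling.

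Lists of related genes were set beside the 10 collagens. Among all genes, 2.36% rose after TAC in KO, 6.36% rose in WT and 5.63% were lower in KO TAC than in WT TAC. Of 26 other basement membrane genes tested (laminin chains, nidogens, perlecan and others), 2 rose and 1 fell after TAC in KO and 10 rose and 1 fell in WT, where 1.73% of all genes fell in KO and 5.80% in WT. Col18a1, the multiplexin related to type XV, rose in both, by 0.62 (SE 0.14, adjusted p = 0.022) in KO and 0.90 (SE 0.13, adjusted p = 0.0042) in WT. Their median log2 fold change was 0.19 in KO and 0.46 in WT, beside 0.95 and 1.34 for the 10 collagens. Between KO TAC and WT TAC, 8 of the 26 were lower and 0 higher, with Nid1 (-0.66), Lamc1 (-0.69) and Lama2 (-0.72), which encode nidogen and laminin chains, the 3 with the smallest p (adjusted p = 0.0021 to 0.0022).

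Of 20 collagen receptors and binding partners, 1 rose and 1 fell after TAC in KO and 5 rose and 2 fell in WT, and 6 were lower and 1 higher in KO TAC than in WT TAC (3.71% of all genes were higher). Antxr1, which encodes a receptor known to bind type VI collagen, was lower in KO TAC than in WT TAC (log2 fold change -1.10, SE 0.14, adjusted p = 8.4e-04) and rose after TAC in WT (0.68, SE 0.17, adjusted p = 0.024). Antxr2, its close relative, fell in KO after TAC (log2 fold change -0.56, SE 0.12, adjusted p = 0.014). Of 17 other non-fibrillar collagens, a list that shares Col18a1 with the basement membrane genes, 2 rose in KO, 3 rose in WT and 1 (Col22a1, -1.83, adjusted p = 0.0081) was lower in KO TAC than in WT TAC. The 9 fibrillar collagen genes had median log2 fold changes of 1.21 in KO, where 0 passed, 1.75 in WT, where 6 rose, and -1.02 between KO TAC and WT TAC, where 1 was lower.

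Leaving out the library labelled WT TAC replicate 1 raised the number of related genes that were lower in KO TAC than in WT TAC, as it did for all genes. The counts were then 11 of 26 other basement membrane genes, 11 of 20 receptors and partners, 4 of 17 other non-fibrillar collagens and 5 of 9 fibrillar collagens, where 10% of all genes were lower. After TAC, 3 other basement membrane genes and 3 receptors and partners then rose in KO, where 2.87% of all genes did. In WT 12 other basement membrane genes, 5 other non-fibrillar collagens and 7 fibrillar collagens then rose, where 9.25% of all genes did.

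Markers of several cell types moved with the groups. Among all genes, 2.36% rose after TAC in KO, 6.36% rose in WT and 5.63% were lower in KO TAC than in WT TAC. These shares were 2.87%, 9.25% and 10% without the library labelled WT TAC replicate 1. Fibroblast markers (7 genes, none at 0 in all libraries) summed to 1253 to 1543 CPM in KO TAC, 1167 and 1376 CPM in KO sham, 1513 to 2550.5 CPM in WT TAC and 1289 and 1294 CPM in WT sham. Of the 7, 0 passed after TAC in KO, 5 rose in WT, and 6 were lower in KO TAC than in WT TAC, among them Pdgfra (-0.69, adjusted p = 8.8e-04) and Tcf21 (-0.91, adjusted p = 0.0014). When the library labelled WT TAC replicate 1 was left out, 2 rose in KO, 6 rose in WT and 7 were lower in KO TAC than in WT TAC. Macrophage markers (7 genes) summed to 239 to 318 CPM in KO TAC and 285 to 497 CPM in WT TAC. After TAC, 0 passed in KO and 7 rose in WT, and 4 were lower in KO TAC than in WT TAC. Without that library 1 rose in KO, 7 rose in WT and 6 were lower in KO TAC than in WT TAC.

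Endothelial markers (7 genes) summed to 992 to 1247 CPM in KO TAC and 709 to 1199 CPM in WT TAC, and pericyte markers (7 genes) to 1267 to 1579 CPM and 1171 to 1585 CPM in the same groups. Of the endothelial markers 1 (Egfl7, 0.69, adjusted p = 0.024) was higher in KO TAC than in WT TAC, where 3.71% of all genes were. Of the pericyte markers 0 passed in that comparison. The pericyte marker Cspg4 rose after TAC in KO (0.70, adjusted p = 0.024) and in WT (0.51, adjusted p = 0.039). Smooth muscle markers (5 genes) summed to 749 to 962 CPM in KO TAC, 920.5 and 1155 CPM in KO sham, 438 to 1032 CPM in WT TAC and 556 and 646 CPM in WT sham, and 1 of them, Smtn, was higher in KO TAC than in WT TAC (0.52, adjusted p = 0.041). Mesothelial markers (4 genes) summed to 11.4 to 16.7 CPM in KO TAC and 4.94 to 11.7 CPM in WT TAC, and 1 of them, Upk3b, was higher in KO TAC than in WT TAC (1.99, adjusted p = 0.042). Of the 7 cardiomyocyte markers, Ryr2 fell after TAC in WT (-0.50, adjusted p = 0.041), Tnni3 was higher in KO TAC than in WT TAC (0.49, adjusted p = 0.046), and 0 passed after TAC in KO.

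With the library labelled WT TAC replicate 1 left out, 2 markers each of endothelium, smooth muscle, mesothelium and cardiomyocytes were higher in KO TAC than in WT TAC, where 8.50% of all genes were. In WT 1 pericyte, 1 smooth muscle and 1 cardiomyocyte marker then fell after TAC, where 8.10% of all genes did. In the same fit 1 pericyte marker rose in WT and 1 in KO, where 9.25% and 2.87% of all genes rose. After sham, 1 smooth muscle marker was then higher in KO than in WT, where 0.397% of all genes differed. Mitochondrially encoded genes took 14.9% to 19.2% of counts in KO TAC, 20.5% and 23.7% in KO sham, 10.1% to 17.1% in WT TAC and 18.8% and 18.5% in WT sham. The part of these differences in the collagen results was not tested.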

How the data were processed

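The authors deposited raw read counts per gene for 14 libraries. Per the submitters' processing notes, FastQC, HISAT2 2.1.0, featureCounts and edgeR were used with GRCm38; the sources used here give no settings, not even for strand.

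Counts were tested with edgeR 4.0.16 (R 4.3.3): filterByExpr on group, TMM scaling, robust glmQLFit of 4 group means, quasi-likelihood F test, and Benjamini-Hochberg adjustment over the 15876 genes tested, with a threshold of 0.05. SE is the size of the log2 fold change over the root of its F value. TMM-scaled CPM give the levels, and 3 counts stood for 0.0899 to 0.172 CPM. Chi-square per degree of freedom within groups was 4.62 to 186 over 23 pairs, so no libraries were merged. Ratios were compared by exact permutation (SciPy 1.17.1). Alternatives used RLE scaling, no filter, limma 3.58.1 voom, DESeq2 1.42.0, the compared groups alone, a replicate block, and leaving out each library. The steps were tested on simulated data. Coordinates come from GENCODE M21, which held 54495 of the 54532 gene IDs. The members and gene lists were chosen with earlier results of these data known. All members are named, with up to 3 called genes of smallest p per list and comparison, and the nearest genes by profile.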

Additional observations from a re-analysis of the deposited data

Results flagged for a closer look

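Col12a1 in WT TAC replicate 7 stood far from the other libraries of its group, at 51.4 CPM, where the next highest WT TAC library had 20.7 CPM. The gap was 0.667 of the range of the 6 libraries. This was the only value to stand apart among 26 groups of values examined. By chance about 1 group in 20 holds such a value, so 1 among 26 is no more than chance gives.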

How the results depend on the processing

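With 2 sham libraries per genotype, the number of members that passed depended on single libraries and on the fit. The calls over all genes moved too and are given in brackets. For TAC against sham in KO, the 2 of the main analysis (374 of 15876 genes rose) became 0 with no filter on low counts (348 of 27249). The count was 1 with the replicate block (258 of 15876) and 8 with the compared groups alone (867 of 15324). It was 4 with limma voom (244 of 15876), 8 with DESeq2 (784 of 15876) and 0 to 6 when a TAC library was left out (from 152 of 15834 to 763 of 15811). For TAC against sham in WT, 8 (1009 of 15876 genes rose) became 7 with no filter (721 of 27249) and 0 with the replicate block (11 of 15876). The count was 4 with the compared groups alone (341 of 15542), 9 with limma voom (702 of 15876) and 10 with DESeq2 (1490 of 15876). It was 8 or 9 when a TAC library was left out (from 590 of 15842 to 1469 of 15880). Leaving out a sham library leaves 1, taken to vary like the other groups, and those fits are not counted in these numbers of members. The tally of single-gene values at the end of this paragraph does include those fits. For KO against WT after TAC, 2 (894 of 15876 genes were lower) became 1 with no filter (756 of 27249) and 0 with the block (27 of 15876). The count was 1 with the compared groups alone (489 of 15114), 2 with limma voom (843 of 15876) and 4 with DESeq2 (1289 of 15876). It was 1 to 5 when a TAC library was left out (from 223 of 15855 to 1589 of 15880). For KO against WT after sham, 0 (14 of 15876 genes were lower) became 3 lower with the compared groups alone (657 of 14751). RLE scaling changed no count, and the interaction count was 0 throughout. Of 990 recomputed values of single genes, 875 kept their direction and their side of the threshold, 56 no longer passed, 42 newly passed and 17 changed sign.

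The replicate numbers were not shown to pair the libraries. Correlations of the deviations from group means in 13 same-numbered pairs ran from -0.20 to 0.05, and 0 exceeded 0.1. This cannot exclude pairing, because in a group of 2 sham libraries the deviations are mirror images, so the pairs are not independent. Signs changed only in differences that had not passed. Under the replicate block, KO against WT after TAC turned to 0.20 for Col4a1, 0.21 for Col4a2 and 0.11 for Col6a3, and the interaction to 0.00 for Col4a2, 0.03 for Col6a2, 0.60 for Col8a1, 0.80 for Col12a1 and 0.39 for Col16a1. Without WT TAC replicate 7, KO against WT after TAC was 0.03 for Col4a1 and 0.04 for Col4a2 (down to -0.25 and -0.21 without other libraries), and the interaction was 0.12 for Col8a1, 0.07 for Col12a1 and 0.03 for Col16a1 (down to -0.26, -0.90 and -0.41). The Col8a1 interaction was also 0.09 and 0.02 without KO TAC replicates 4 and 5, 0.05 without WT sham replicate 2 and 0.01 without WT TAC replicate 6. The Col6a3 to Col6a1 ratio after TAC in WT was 0.04 without WT TAC replicate 4 and down to -0.08 without others, against -0.03. The cause was not tested.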
